A study of Mus musculus with 2 samples.

Results

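Crabp1 and Coch fibroblasts are fibroblasts of the mouse choroid plexus in which the transcripts of Crabp1, Coch, Slc7a11, Cpxm1 and Clmp together outnumbered those of 5 genes of the other stromal fibroblasts, Lum, Efemp1, Inmt, Adh1 and Itih5. Of 19584 cell barcodes in the series, 745 met this rule, 379 at 3 months of age and 366 at 24 months. Membership was decided in 3 steps on unique molecular identifiers (UMIs), each of which stands for 1 captured transcript copy. Barcodes were kept with at least 500 genes, at most 25% mitochondrial UMIs and less than 10% of UMIs from Ttr, the transthyretin gene of the epithelium. Those with at least 5 UMIs summed over Dcn, Lum, Dpep1, Col1a1, Col1a2, Pdgfra, Serpinf1 and Ogn, and fewer than 8 over a set of endothelial genes, counted as mesenchymal. The remaining 821 and 1290 mesenchymal barcodes, including 81 and 86 ties, served for comparison and are called the other mesenchymal barcodes. The members were chosen on these expression values, so the levels of the genes in the rule, and every difference between members and other mesenchymal barcodes, are a description and were not tested.

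The choroid plexus lies in the brain ventricles and consists of a secretory epithelium around a core of fenestrated vessels and fibroblasts. Its fibroblasts are continuous with those of the leptomeninges and deposit the collagens, proteoglycans and basement membrane on which epithelium and vessels rest. CRABP1 binds retinoic acid in the cytosol, cochlin is a secreted matrix protein also found in the inner ear and the eye, and SLC7A11 is the cystine and glutamate exchanger that supplies cells with cystine for glutathione.

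Both libraries came from female C57BL/6 mice without treatment or genetic change, 1 group aged 3 months and 1 aged 24 months. For each age the plexuses of the lateral ventricles and the 4th ventricle of 4 perfused mice were pooled, digested with collagenases and DNase, and made into 1 droplet-based 10x Genomics 3′ library. Individual mice, and the ventricle a cell came from, cannot be told apart in these pools. With 1 library per age the comparison had no replicates and was not tested.

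The libraries held 9154 barcodes with 111403078 UMIs at 3 months and 10430 barcodes with 116777113 UMIs at 24 months, of which 29 barcode sequences occurred in both. 3 of these belonged to a member of 1 library and none to members of both. The members held 1635592 and 1311481 UMIs in all, with medians of 4201 and 3322 UMIs and 1876 and 1559 genes per barcode. They were thus shallower at 24 months, as were the other mesenchymal barcodes, with medians of 3780 and 3072.5 UMIs. A median of 1.56% and 1.33% of the members' UMIs was Ttr, against 1.74% and 1.39% in the other mesenchymal barcodes. Levels are given as CPM, UMIs per 1000000 UMIs of the class in that library, with 3 months first. Ranges in brackets are 95% intervals, which cover counting error only.

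Crabp1 was the gene of the rule that most separated members from other mesenchymal barcodes. It stood at 278 and 342 CPM in members and at 28.7 and 43.8 CPM in the others, 9.68 (7.78 to 12.1) and 7.79 (6.56 to 9.27) times higher in members. Slc7a11 stood at 962 and 787 CPM against 182 and 196 CPM, 5.28 and 4.01 times higher. The other 3 genes separated the classes less. Coch stood at 2484 and 3308 CPM against 1169 and 1360 CPM. The carboxypeptidase-like secreted protein Cpxm1 was 1.33 and 1.46 times higher in members, and the adhesion molecule Clmp 1.61 and 1.67 times. Alpl, tissue-nonspecific alkaline phosphatase, is a marker of the class outside the rule. It stood at 1844 and 2361 CPM in members and at 1458 and 1811 CPM in the others, only 1.26 and 1.30 times higher.

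Detection per barcode also separated the classes most for Crabp1 and Slc7a11. A UMI of Crabp1 was found in 42% and 43.4% of members and in 7.43% and 7.83% of other mesenchymal barcodes. Slc7a11 was found in 78.9% and 62.6% of members against 26.4% and 25.9%. Coch was found in 98.2% and 99.5% of members, but also in 85.3% and 85.7% of the others, and Alpl in 95% and 96.4% against 89.6% and 92.8%. The markers Coch, Alpl and Cpxm1 therefore did not by themselves set the members apart from other fibroblasts, and most members had no Crabp1 UMI. Barcodes with at least 10% Ttr, which are epithelial and should lack these genes, held a Crabp1 UMI in 0.680% and 0.458% and a Coch UMI in 4.84% and 4.83%, at a depth of 17689 and 15257 UMIs (medians).

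**Figure D1:**
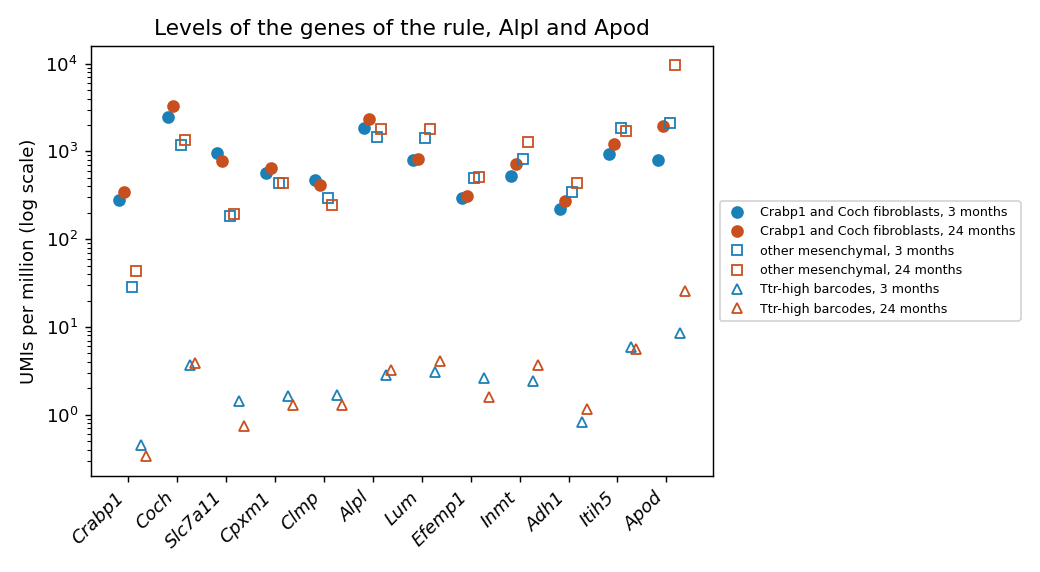
Levels in CPM (log scale) of the 5 genes that select the members, of Alpl, of the 5 stromal genes of the rule and of Apod, in members (filled circles), other mesenchymal barcodes (open squares) and Ttr-high barcodes (open triangles), each point being 1 class in 1 library. Of the 5 selecting genes, Crabp1 and Slc7a11 show the widest gaps between members and other mesenchymal barcodes, Coch and Alpl are high in both, and Apod reached 9533 CPM in the other mesenchymal barcodes at 24 months.

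The sequences just upstream of Crabp1, Coch and Slc7a11 are shown because these genes lead the selecting set. They are the 250 bases before the RefSeq start in GRCm38.p6, read along the gene's strand from 5′ to 3′. Capitals mark matches to TGATGNAA on either strand, a form of the amino acid response element bound by ATF4, searched because Slc7a11 is a textbook ATF4 target. Crabp1 lies at chr9:54764498-54764747 on the plus strand, Coch at chr12:51593091-51593340 on the plus strand and Slc7a11 at chr3:50443614-50443863 on the minus strand.
Crabp1: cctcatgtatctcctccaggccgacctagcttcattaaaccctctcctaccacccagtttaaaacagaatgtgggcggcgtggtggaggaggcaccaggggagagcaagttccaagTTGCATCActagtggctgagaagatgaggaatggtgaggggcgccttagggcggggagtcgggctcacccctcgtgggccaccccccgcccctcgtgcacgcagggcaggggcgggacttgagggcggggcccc
Coch: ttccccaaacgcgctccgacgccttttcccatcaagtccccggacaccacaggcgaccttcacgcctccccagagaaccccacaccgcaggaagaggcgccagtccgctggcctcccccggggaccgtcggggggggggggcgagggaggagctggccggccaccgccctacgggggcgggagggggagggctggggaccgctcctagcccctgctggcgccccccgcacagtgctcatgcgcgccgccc
Slc7a11: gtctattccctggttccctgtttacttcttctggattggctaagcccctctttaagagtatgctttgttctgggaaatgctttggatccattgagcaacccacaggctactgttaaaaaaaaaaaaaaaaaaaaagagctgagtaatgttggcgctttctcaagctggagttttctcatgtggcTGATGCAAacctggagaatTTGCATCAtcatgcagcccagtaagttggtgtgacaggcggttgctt
Slc7a11 held 2 matches, 66 to 59 bases before the start on the plus strand and 47 to 40 bases before it on the minus strand of the window. Crabp1 held 1, from 134 to 127 bases before the start on the minus strand, and Coch held 0. Of 32851 promoter windows of this length, 3.45% held at least 1 match and 0.0396% held at least 2. A match is a run of letters and no evidence of binding.

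The members were themselves mixed in the genes that selected them. With every barcode thinned to 1500 UMIs, which left out 7 and 8 shallower members, 12.4% and 11.5% of members had UMIs of both Crabp1 and Slc7a11. Another 12.9% and 18.4% had Crabp1 without Slc7a11, and 48.7% and 39.7% had Slc7a11 without Crabp1. 26.1% and 30.4% had neither gene, while Coch remained in 93.3% and 96.1%. The members with a Crabp1 UMI numbered 159 in each library. Their Slc7a11 level was 0.733 (0.660 to 0.813) and 0.683 (0.600 to 0.777) times that of members without one, so the 2 leading genes of the rule were not highest in the same barcodes. The rule sums these genes, and a member rich in one needs less of the other. Ildr2, a membrane protein of tricellular junctions, was 2.06 and 1.51 times higher in members with Crabp1. Coch was 1.35 and 1.14 times higher there and Alpl 1.26 and 1.23 times. The semaphorin Sema6d was 1.46 and 1.47 times higher and the glutamate receptor subunit Gria3 1.43 and 1.46 times. Apod, the lipocalin apolipoprotein D, differed little at 3 months, at 0.911 times (0.814 to 1.02), and was 0.503 times (0.462 to 0.548) at 24 months. A UMI of Crabp1 is more often seen in deeper barcodes, and members with one had medians of 4381 and 3539 UMIs against 4023.5 and 3198.

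Members and other mesenchymal barcodes formed 1 continuous range under the rule. The margin, the selecting UMIs minus the stromal UMIs, was 1 or 2 UMIs in 70 and 86 members, which were 18.5% and 23.5% of them. It was at least 8 UMIs in 44.6% and 42.1%. Just inside the limit, the 36 and 50 members with a margin of 1 had medians of 10 and 10.5 selecting UMIs against 9 and 9.5 stromal UMIs. Just outside it, the 81 and 86 ties had medians of 3 and 8.5 UMIs of either set, and 36 and 26 of the mesenchymal barcodes had no UMI of either. Members as a whole had 20 against 11 at 3 months and 18 against 11 at 24 months.

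**Figure D2:**
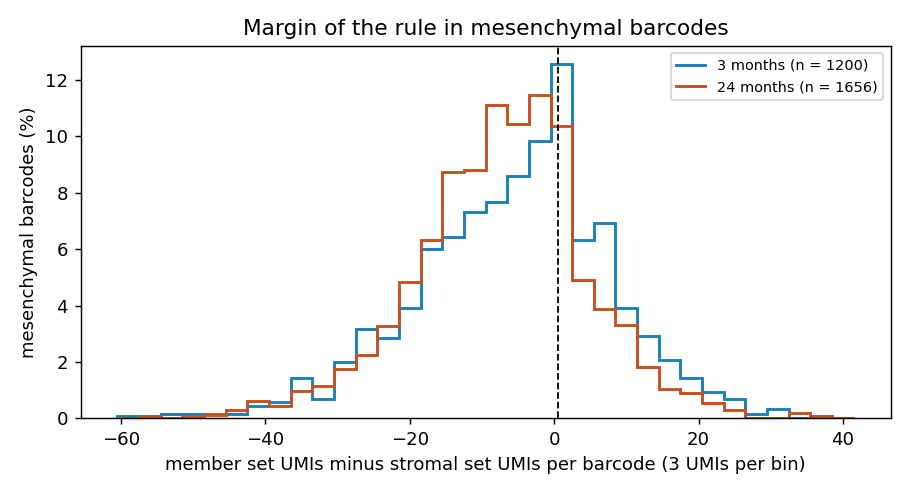
Distribution of the margin (selecting UMIs minus stromal UMIs per barcode, bins of 3 UMIs) as a percentage of the 1200 mesenchymal barcodes at 3 months and the 1656 at 24 months, with a dashed line at the limit of membership. Neither curve has a gap at the limit, and the curve of 24 months lies lower to the right of it, where 22.1% of barcodes were members against 31.6% at 3 months.

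Members made up a smaller share of mesenchymal barcodes at 24 months. They were 31.6% (29.0 to 34.3) at 3 months and 22.1% (20.1 to 24.2) at 24 months, a difference of −9.48 percentage points. Of all kept barcodes they were 13.9% (12.6 to 15.2) and 11.8% (10.7 to 13.0). The share depends on both sides of the rule. Summed over all mesenchymal barcodes, the stromal set stood at 4265 and 5162 CPM, 1.21 times (1.19 to 1.23) higher at 24 months, while the selecting set stood at 2956 and 3026 CPM, 1.02 times (1.00 to 1.05). Inmt, an amine methyltransferase, was 1.56 times higher over all these barcodes and the proteoglycan lumican (Lum) 1.29 times, whereas Slc7a11 was 0.770 times its level at 3 months. Fewer cells of this kind and a shift in the genes of the rule within the same cells cannot be told apart. When the rule was applied after thinning to 1500 UMIs, the shares were 28.3% and 21.8%, a difference of −6.47 points.

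Other cell types were searched for among the members with marker lists. At least 10 UMIs of pericyte markers were found in 15 members at 3 months and 9 at 24 months, of smooth muscle markers in 2 and 2, and of macrophage markers in 0 and 2. 2 members at 24 months held at least 10 UMIs of B cell and immunoglobulin genes, and none did so for T or NK cells. In sum the pericyte markers stood at 618 and 406 CPM, the smooth muscle markers at 176 and 121 CPM and the macrophage markers at 20.8 and 42.7 CPM. Of 8 arachnoid or base barrier markers 7 were detected, at 344 and 338 CPM in sum with Dpp4 at 0. This sum was higher in the other mesenchymal barcodes, at 486 and 467 CPM, and in Ttr-high barcodes, at 2279 and 2296 CPM. The part of free epithelial RNA in the members' sum was not tested. Counts below were also made without the 15 and 11 members that held 10 or more UMIs of another type.

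Levels in members were next set against those in other mesenchymal barcodes over all genes. A gene was counted where its level differed at least 1.5-fold, its interval excluded 1 and at least 50 UMIs had been seen. In both libraries 84 of 8136 genes were higher in members (1.03%) and 145 were lower (1.78%), 4 genes of the selecting set and 4 of the stromal set among them; the rule split the classes on the same counts, so nothing is read from these shares. The following are from the 20 genes outside the rule that stood highest above the other mesenchymal barcodes, among those with at least 100 CPM in the members of both libraries. The glutamate receptor subunit Gria3 stood at 122 and 111 CPM, 2.24 and 2.31 times the others' level. Ildr2 stood at 190 and 140 CPM, 2.16 and 2.60 times. The transcription factor Sox4 stood at 331 and 271 CPM, 1.99 and 2.00 times, and Foxp1 at 286 and 292 CPM, 1.59 and 1.5 times. Sema6d, a semaphorin, was 1.62 times higher in each library, and Neo1, a receptor for netrins and repulsive guidance molecules, 1.64 and 1.54 times. Cxcl12, the chemokine ligand of CXCR4, stood at 1559 and 1456 CPM, 1.58 and 1.5 times. Errfi1, an inhibitor of the EGF receptor, was 1.74 and 1.69 times higher, and the phosphodiesterase Pde4b 1.86 and 1.57 times. The remaining genes of these 20 outside the groups described next were Lpin2, Mme, Rcan1, Ptprs and Mgst1, between 1.49 and 1.96 times.

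Sterol synthesis was the group of the lists with most genes higher in members. Of 24 genes of lipid carriage and sterol synthesis measured in both libraries, 7 were higher, among them Fabp4, Idi1, Fdft1, Sqle, Cyp51 and Stard4, and 1, Apod, was lower, beside 1.03% and 1.78% of all genes. Squalene epoxidase (Sqle) stood at 265 and 276 CPM against 155 and 157 CPM, and the isomerase Idi1 at 465 and 342 CPM against 295 and 220 CPM. Idi1 was also found in Ttr-high barcodes, at 195 and 165 CPM, below either fibroblast class. Among collagens, Col18a1, the basement membrane collagen that yields endostatin, stood at 619 and 561 CPM in members against 322 and 261 CPM. The membrane collagen Col23a1 was 1.81 and 1.83 times higher, and Col3a1, a fibrillar collagen, was 0.470 and 0.464 times the others' level. Cldn5, the tight junction claudin best known from endothelium, stood at 34.2 and 60.2 CPM in members against 6.32 and 12.6 CPM, 5.42 and 4.80 times. Endothelial markers in sum were at 554 and 498 CPM in members and at 559 and 574 CPM in the others. By the rule, no barcode of either class held 8 or more such UMIs. The part of endothelial transcripts in the Cldn5 level was not tested.

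Over single mesenchymal barcodes, the gene most like the summed selecting genes was Alpl, with a Pearson correlation of 0.558 over 1200 barcodes at 3 months and 0.492 over 1656 at 24 months. Ranked by the lower of the 2 libraries, the lipid phosphatase Plpp3 followed at 0.516 and 0.435, Cxcl12 at 0.497 and 0.406 and Col18a1 at 0.426 and 0.357. Barcodes of 1 library share its depth and free RNA, and these values are a description.

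Between the ages, 191 of 6519 genes were higher at 24 months in members (2.93%) and 310 were lower (4.76%) by the size rule of at least 1.5-fold, 7.69% in either direction. Without the members that held UMIs of other cell types, 185 of 6408 were higher (2.89%) and 315 lower (4.92%), 7.8% in all. The median log2 ratio over all genes was −0.06. Scaled by the median of ratios in place of total UMIs, the counts were 249 higher and 217 lower, so the excess of lower genes depends on the scaling. In the other mesenchymal barcodes 422 of 9580 genes were higher (4.41%) and 663 lower (6.92%), 11.3% in either direction. Those barcodes held more UMIs in all, 3480085 and 4378863, and the part of this in their larger share of counted genes was not tested. Of 6513 genes measured in both classes, 75 were higher in both and 92 lower in both, and 3 were called in opposite directions.

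The 15 genes furthest above their level at 3 months began with immunoglobulin genes, the products of plasma cells. Igkc, the kappa light chain, went from 3 to 3361 UMIs, of which 99.2% lay in 1 barcode. Ighm, the mu heavy chain, had 0 and 1107 UMIs, 1096 of them in 1 barcode, and Jchain 0 and 146 UMIs, 144 of them in 1 barcode. Of Cd74, the invariant chain of MHC class II, 121 of 173 UMIs at 24 months lay in 1 barcode. Without the members that held UMIs of other cell types, all 4 fell under the limit of 50 UMIs and were not counted.

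Glra3, a subunit of the glycine receptor, showed the largest difference of the remaining genes. It stood at 48.9 and 304 CPM, 6.22 times (4.88 to 8.01) higher at 24 months, and was found in 12.9% and 45.9% of members. The gene lies on the plus strand of chromosome 8 (55940460 to 56130070, mm10). In the other mesenchymal barcodes it was 13.6 times higher, from a lower level at 3 months of 14.4 CPM. Spp1, osteopontin, a secreted phosphoprotein of mineralised and injured tissue, stood at 532 and 1650 CPM in members, 3.10 times (2.87 to 3.36) higher, and was found in 53.0% and 77.3% of them. After thinning, Spp1 was found in 36.0% and 63.7% of members. The gene lies on chromosome 5 (104435118 to 104441050). In the other mesenchymal barcodes Spp1 was 2.26 times higher, at 381 and 860 CPM, a smaller ratio beyond counting error: the members' age ratio was 1.37 times (1.24 to 1.52) theirs. Its members' level thus lay above the others' at both ages, 1.40 and 1.92 times.

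Apod differed the other way. It stood at 798 and 1966 CPM in members, 2.46 times (2.30 to 2.64) higher at 24 months, and at 2088 and 9533 CPM in the other mesenchymal barcodes, 4.56 times (4.45 to 4.68) higher. The members' age ratio was 0.540 times (0.503 to 0.580) that of the others. At 24 months Apod was also lower in members with Crabp1 than in those without, as given above. It stood at 756 and 1278 CPM in members with Crabp1 and at 829 and 2538 CPM in those without, higher at 24 months in both. Gsn, the actin-severing protein gelsolin, stood at 270 and 493 CPM in members, 1.82 times higher, and at 1319 and 1461 CPM in the others, 1.11 times. Hmox1, the haem-degrading oxygenase, stood at 78.3 and 143 CPM in members, 1.82 times higher against 1.28 times in the others; Ttr-high barcodes held it at 151 and 190 CPM. The metallothionein Mt2 stood at 284 and 505 CPM, 1.78 times higher against 1.30 times. For these 3 genes the members began below the others at 3 months and came closer to them at 24 months. Hk2, the inducible hexokinase, was 1.88 times higher in members and 1.71 times in the others. The nuclear long non-coding RNA Neat1 was 1.87 times higher against 1.73 times. AW112010 was 2.57 times higher against 2.75 times, Tuba4a 1.97 against 2.07 times and Cox8b 1.86 against 1.24 times. Cox8b is also high in Ttr-high barcodes, at 267 and 597 CPM, where it differed with age as well, and the part of free epithelial RNA in its level was not tested.

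Among the 15 genes furthest below their level at 3 months, Ccnd2 came first. This cyclin of the G1 phase stood at 240 and 60.2 CPM in members, 0.251 times (0.195 to 0.321) at 24 months, and was found in 48.5% and 11.5% of them. It lies on the minus strand of chromosome 6 (127125162 to 127152193). Ttr-high barcodes held Ccnd2 at 268 and 176 CPM, also lower at 24 months. The part of free epithelial RNA in the members' Ccnd2 level was not tested. The imprinted non-coding RNA Meg3 stood at 117 and 32.8 CPM, 0.279 times, and 0.181 times without the members that held UMIs of other cell types. In the other mesenchymal barcodes the ratios were 0.237 and 0.240, and the members' ratio did not differ from them beyond counting error. Col1a2, a chain of type I collagen, stood at 499 and 249 CPM, 0.498 times (0.437 to 0.567), and was found in 75.2% and 50.3% of members. Serpinh1, the collagen chaperone HSP47, stood at 417 and 233 CPM, 0.560 times (0.487 to 0.641). Ccdc80, a secreted matrix-binding protein, stood at 481 and 260 CPM, 0.540 times, and the metalloprotease Adam12 at 106 and 54.1 CPM, 0.509 times. Parm1, a mucin-like membrane protein, stood at 109 and 54.9 CPM in members against 33.3 and 16.9 CPM in the others, 3.28 and 3.25 times higher in members at either age and 0.502 times at 24 months what it was at 3 months. Fxyd5, Myl9, Tpm2, Ccser2, Tusc3, Ehd3 and Cacybp lay between 0.451 and 0.574 times. Ttr-high barcodes held Tusc3 at 196 and 173 CPM and Cacybp at 255 and 214 CPM, above the members at both ages. The pericyte marker Rgs5 was at 0.460 times in members. Without the members holding UMIs of other cell types Rgs5 had 70 and 15 UMIs. Of the 30 genes named as highest and lowest, 26 were still called without those members, and 14 with a limit of 2-fold.

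**Figure D3:**
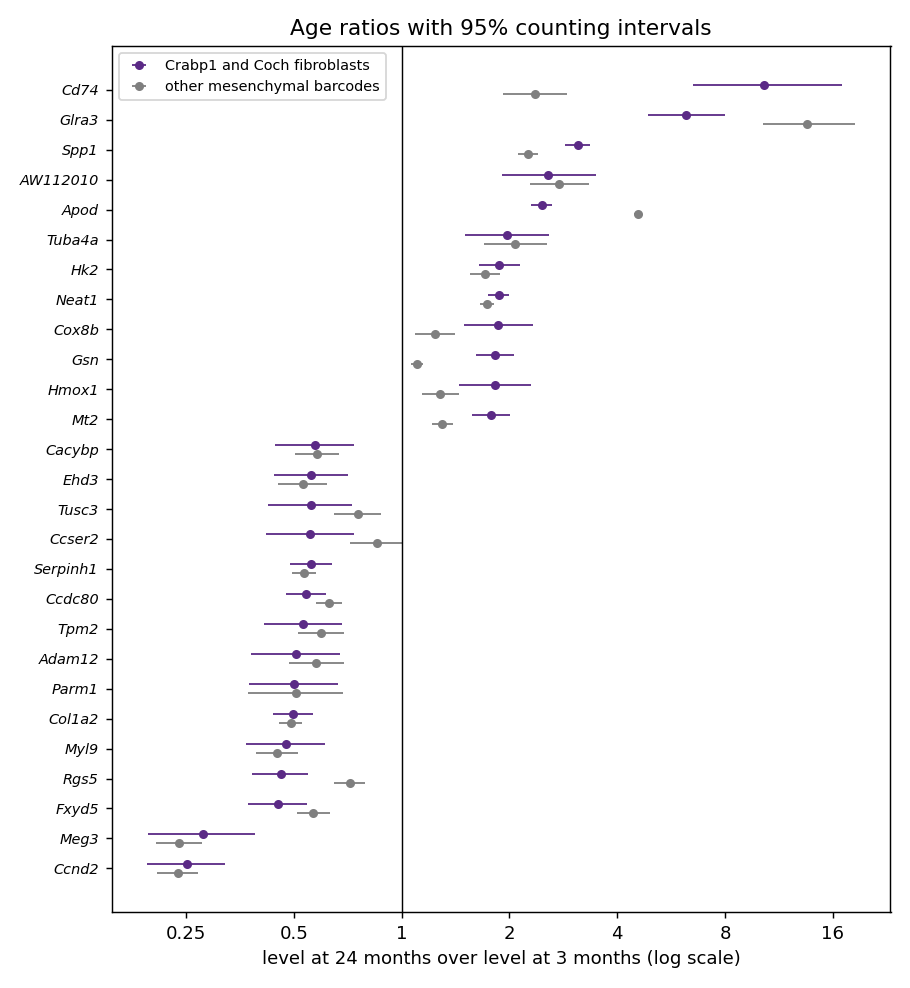
Level at 24 months over level at 3 months (log scale) with 95% counting intervals for 27 of the 30 named genes, in members (purple) and in other mesenchymal barcodes (grey). Igkc, Ighm and Jchain are left out because nearly all of their UMIs came from 1 barcode. Ccnd2, Meg3 and Col1a2 have like ratios in both classes, while Apod, Glra3, Spp1, Gsn, Hmox1 and Mt2 do not.

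Interstitial collagens were the list with the largest part of its genes lower. Of 17 interstitial collagen genes measured, 7 were lower at 24 months and 0 higher, beside 4.76% and 2.93% of all genes, with a median log2 ratio of −0.43 beside −0.06. The lower genes were Col1a1, Col1a2, Col3a1, Col5a2, Col9a2, Col14a1 and Col26a1. Of these, Col1a1 and Col1a2 belong to the 8 genes that selected mesenchymal barcodes, so their levels are bound to the rule. Col1a1 stood at 177 and 112 CPM, Col5a2 at 76.4 and 36.6 CPM, and Col3a1 at 50.7 and 15.3 CPM, 0.301 times (0.175 to 0.494). Col14a1, a fibril-associated collagen, stood at 71.5 and 23.6 CPM. The other mesenchymal barcodes had 10 of 17 lower and 1 higher, beside 6.92% and 4.41% of all genes, and a median of −0.70. Col9a2, a chain of type IX collagen, set the members apart: it stood at 56.2 and 23.6 CPM in them and at 29.6 and 25.8 CPM in the others, so its age ratio in members was 0.482 times (0.296 to 0.784) theirs. Col9a2 was singled out after its values were seen. Of 22 genes of protein folding in the endoplasmic reticulum, 3 were lower (Creld2, Manf and Sdf2l1) and 0 higher, with a median of −0.24. The abundant chaperones Hsp90b1 and Hspa5 stood at 947 and 727 CPM and at 1429 and 1321 CPM.

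The remaining matrix lists were mixed, beside 2.93% of all genes higher and 4.76% lower in members. Of 33 glycoproteins and proteoglycans, 2 were higher (Crispld2 and Spp1) and 4 lower (Mfap2, Sparc, Svep1 and Thbs2). Sparc, a collagen-binding protein, stood at 1049 and 614 CPM in members, 0.585 times (0.538 to 0.637). Crispld2 stood at 7.95 and 38.9 CPM, 4.89 times (2.62 to 9.81) higher, whereas in the other mesenchymal barcodes it was at 60.3 and 47.5 CPM. Decorin (Dcn) stood at 2051 and 2637 CPM and matrix Gla protein (Mgp), an inhibitor of mineralisation, at 11013 and 11877 CPM. Of 15 basement membrane genes, Col15a1 and Col4a5 were higher and Agrn and Col4a2 lower. Of 25 genes that process matrix, the gelatinase Mmp2 was higher, at 26.3 and 46.5 CPM, and the aggrecanase Adamts5 and Serpinh1 were lower. In the other mesenchymal barcodes Mmp2 stood at 99.4 and 95.7 CPM, above the members at both ages.

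Genes of mineral and phosphate handling included the alkaline phosphatase that marks the class. Of 10 measured, Spp1 and Enpp1 were higher and 0 lower, beside 2.93% and 4.76% of all genes. Enpp1, which makes the mineralisation inhibitor pyrophosphate, stood at 10.4 and 32.8 CPM in members, 3.15 times (1.76 to 5.90) higher. It stood at 25.9 and 33.3 CPM in the others, 1.29 times higher. The members' Enpp1 level was thus 0.402 times the others' at 3 months and 0.983 times at 24 months. Alpl, which degrades pyrophosphate, was 1.28 times (1.22 to 1.35) higher in members and did not reach the limit of 1.5-fold. Ank, the exporter of pyrophosphate, stood at 69.7 and 70.9 CPM. The list's median of 0.21 was −0.08 when only barcodes with under 2% Ttr were used.

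The retinoid and glutathione genes to which the leading markers belong showed little common movement. None of 11 retinoid genes was called in either direction, beside 7.69% of all genes, and their median log2 ratio was 0.01. Crabp1 itself was 1.23 times (1.08 to 1.40) higher in members at 24 months. Rbp4, the plasma retinol carrier, stood at 216 and 236 CPM in members, while the others went from 86.2 to 220 CPM, 2.55 times higher. The members' Rbp4 level was thus 2.50 times the others' at 3 months and 1.07 times at 24 months; this gene was singled out after its values were seen. Of 21 genes of cystine uptake, glutathione and NRF2, 4 were higher (Ggt5, Gpx3, Hmox1 and Srxn1) and 1, Gpx8, lower. These counts stand beside 2.93% and 4.76% of all genes. Slc7a11 was 0.818 times (0.756 to 0.886) and its partner subunit Slc3a2 1.23 times (1.11 to 1.36) its level at 3 months. Gclc, the rate-limiting enzyme of glutathione synthesis, stood at 149 and 143 CPM, and Gpx3, a secreted glutathione peroxidase, at 37.3 and 64.8 CPM. Since Slc7a11, Crabp1 and the retinoid gene Adh1 entered the rule, their own age ratios within members are bound to it. The retinoid list also held Ttr, at 20746 and 18265 CPM in members, whose share the rule limits.

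Signals to other cells formed the next list. Of 27 chemokines, cytokines and growth factors measured, 7 were higher at 24 months, among them Cxcl2, Cxcl10, Cxcl13, Il11, Lif and Angptl4, and 1, Slit2, was lower, beside 2.93% and 4.76% of all genes. In the other mesenchymal barcodes 10 of 34 were higher and 4 lower, beside 4.41% and 6.92% of all genes. Il11, an IL-6 family cytokine, stood at 17.1 and 77.0 CPM in members, 4.50 times (2.94 to 7.10) higher. It stood at 49.1 and 90.7 CPM in the others, 1.85 times higher. The members' level was thus 0.348 (0.225 to 0.522) and 0.849 (0.676 to 1.06) times the others'. Cxcl13, the B cell chemoattractant, stood at 27.5 and 69.4 CPM, 2.52 times (1.75 to 3.69), against 1.29 times. Lif, another IL-6 family cytokine, stood at 18.3 and 41.9 CPM, 2.29 times higher, against 2.42 times in the others. For Cxcl2, a neutrophil chemokine, the others moved more: members stood at 109 and 174 CPM, 1.59 times, and the others at 50.9 and 208 CPM, 4.09 times. In the members with a Crabp1 UMI Cxcl2 was lower at 24 months, with a log2 ratio of −0.78. Cxcl1, another neutrophil chemokine, stood at 706 and 883 CPM in members and at 513 and 927 CPM in the others. Ptn, pleiotrophin, was nearly level in members at 822 and 900 CPM, while it went from 2568 to 1054 CPM in the others, so that its age ratio in members was 2.67 times (2.45 to 2.91) theirs.

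Type I interferon response genes separated the classes. Of 29 measured in members, 1 was higher at 24 months, the immunoproteasome subunit Psmb8, and 1, Xaf1, was lower, with a median log2 ratio of 0.05. In the other mesenchymal barcodes 16 of 35 were higher and 0 lower, with a median of 0.48. Of all genes, 2.93% were higher and 4.76% lower in members, and 4.41% and 6.92% in the others. Over the same 29 genes the others' median was 0.34. Of these 29, 11 had a lower age ratio in members than in the others with an interval below 1, and 0 had one above, beside 5.39% and 5.61% of 6512 genes overall. 25 of the 29 lay below, as did 3235 of the 6512 genes.

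The genes behind this difference were chosen for printing after their values were seen. Ifit3, an interferon-induced antiviral protein, stood at 22.6 and 19.1 CPM in members and at 19.0 and 43.2 CPM in the others, 0.843 times against 2.28 times. Ifit1 stood at 36.1 and 34.3 CPM against 45.7 and 72.9 CPM, and Rtp4 at 35.5 and 29.0 CPM against 30.7 and 45.7 CPM. Xaf1, an inducer of apoptosis, stood at 26.3 and 13.0 CPM against 22.4 and 27.2 CPM. At 3 months the members' level of these 4 genes was 0.790 to 1.19 times the others', and at 24 months 0.442 to 0.634 times. The abundant genes of the list differed less between the classes. Ifitm3, a membrane protein that blocks virus entry, stood at 1839 and 2102 CPM in members, 1.14 times (1.09 to 1.20), against 1.32 times, and Ifitm2 was 1.16 times against 1.12 times. Ifitm1 stood at 698 and 1039 CPM, 1.49 times, against 1.71 times. These carried the summed list: thinned to 1500 UMIs, the median barcode held 9 and 11 UMIs of the list in members and 10 and 11 in the others. The 90th percentile was 16 and 18 UMIs in members and 16 and 20 in the others. Ttr-high barcodes also held such transcripts at 24 months, Bst2 at 588 CPM and Ifit1 at 32.0 CPM, and the part of free epithelial RNA was not tested; the Ttr shares of the classes are given above. Over 16 alternative settings the members' median ranged from −0.03 to 0.22.

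**Figure D4:**
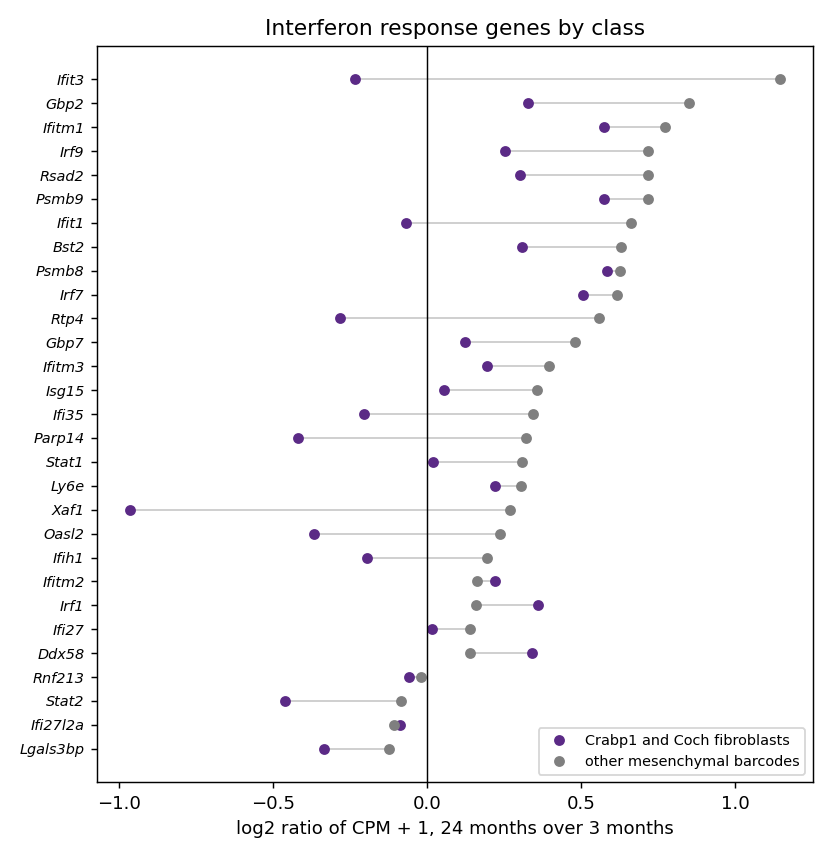
Log2 ratio of CPM plus 1 at 24 over 3 months for the 29 interferon response genes measured in both classes, in members (purple) and other mesenchymal barcodes (grey), with lines joining the classes. In 25 genes the members lie to the left, most widely for Xaf1 and Ifit3.

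Other immune lists were less far apart in their medians. In members 2.93% of all genes were higher at 24 months and 4.76% lower. In the list of antigen presentation by MHC class I, 17 genes were measured and 2 were higher in members and 0 lower, with a median of 0.28 against 0.35 for the others over the same genes. The age ratio was lower in members for 13 of the 17, with an interval below 1 for 0 and above 1 for 1. H2-K1, a classical class I molecule, stood at 330 and 480 CPM in members, 1.46 times (1.30 to 1.64), against 1.62 times, and H2-T23 at 70.3 and 121 CPM. Of 10 complement genes, 3 were higher (C1s1, C2 and C4b) and 0 lower, with a median of 0.22 against 0.11 in the others. The complement component C4b stood at 28.7 and 49.6 CPM. Of 29 immediate early and heat shock genes, which digestion of tissue is known to induce, Fosb and Egr3 were higher and 0 lower, with a median of 0.23 against 0.18 in the others. Fosb stood at 2229 and 3351 CPM and Fos at 2043 and 2173 CPM.

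Of the 24 genes of lipid carriage and sterol synthesis, 2 were lower and 1 higher at 24 months, beside 4.76% and 2.93% of all genes. Stard4 and Fdps were lower and Apod higher, with a median log2 ratio of −0.24 against −0.32 in the others. Stard4, a sterol carrier, stood at 79.5 and 42.7 CPM, 0.537 times (0.386 to 0.740). Idi1 was 0.735 times, and Apoe stood at 4908 and 3885 CPM. In Stard4 and in Idi1 the age ratio did not differ between the classes beyond counting error, so the members stayed above the others.

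The counts of the remaining lists stand beside 2.93% of all genes higher and 4.76% lower in members. Of 28 transcription factors of position, 0 were higher and 3 lower: Foxl2 at 32.4 and 16 CPM, Tbx18 at 83.8 and 51.9 CPM and Alx4 at 85.6 and 56.4 CPM. Of 24 BMP and TGF-beta genes, Ltbp4 and Tgfbr1 were higher and 0 lower. Ltbp4, which binds latent TGF-beta to the matrix, stood at 91.7 and 158 CPM in members, 1.72 times (1.39 to 2.14), against 261 and 241 CPM in the others. Of 11 IGF genes, Igf1r and Igfbp6 were higher and 0 lower. Of 18 leptomeningeal carriers, Slc43a3 was higher and Abca9 and the sulfate carrier Slc13a4 lower. Slc13a4 was higher in the members with a Crabp1 UMI, with a log2 ratio of 0.40. It stood at 44.0 and 25.9 CPM in members and at 265 and 331 CPM in Ttr-high barcodes. The part of free epithelial RNA in its level was not tested. Of 22 genes of junctions and adhesion, Cldn5 was higher and 2 were lower, among them Vcam1 at 1820 and 1161 CPM, 0.638 times (0.599 to 0.678). Of 18 WNT genes 1 was higher and 1 lower, and of 5 Hedgehog genes 1, Boc, was lower. Of 13 genes of senescence and cell cycle arrest, 1 was higher and 3 lower (Ccnd1, Ccnd2 and Ccng1); Cdkn1a, the inhibitor p21, stood at 229 and 329 CPM, 1.43 times. Of 28 contractile and cytoskeletal genes, Anxa1 was higher and Tagln, Tpm2 and Myl9 lower. The log2 ratio of Tagln was −0.99, −1.80 without the members that held UMIs of other cell types, and 0.71 when the rule was applied after thinning. These 3 stand beside the lower pericyte and smooth muscle marker sums given above, whose part was not tested.

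**Figure D5:**
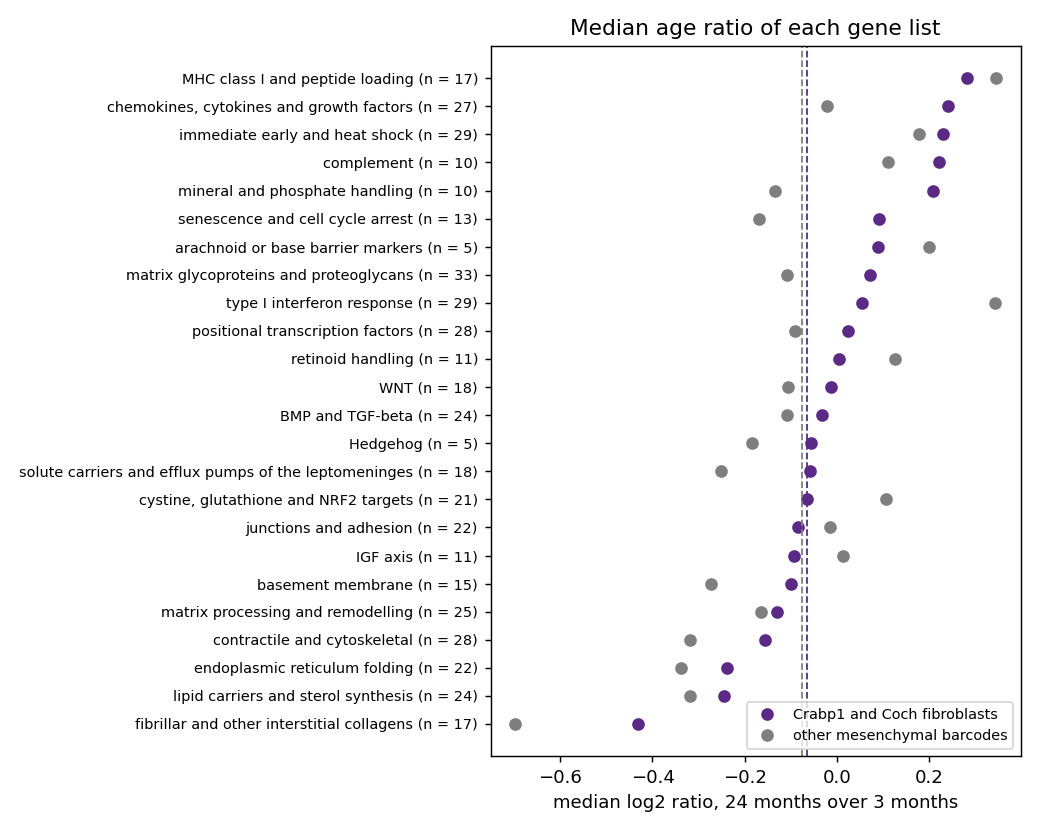
Median log2 ratio, 24 over 3 months, of each gene list in members (purple) and in other mesenchymal barcodes over the same genes (grey), with dashed lines at the median of all genes in each class. Collagens are lowest in both, and the widest gap with members lower is that of the interferon list, 0.05 against 0.34.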

How the data were processed

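Single-cell RNA sequencing libraries of choroid plexus from 3 and 24 month old mice were analysed, 1 library per age, grouped by the age in the labels. The authors deposited UMI counts per gene and barcode, whole numbers without normalization. Cell Ranger 4.0.0 and mm10 were used per the submitters' processing notes; how barcodes were called was not given in these sources. Of 20375 gene symbols, 20091 (98.6%) were found in GENCODE vM21, the source of positions.

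UMIs were summed per library over members and expressed as CPM of the class total, so depth enters as counting error. Ratios have exact conditional binomial 95% intervals, the ratio of 2 age ratios a log-normal one, and shares Clopper-Pearson intervals; none is adjusted for the number of genes. A minimum of 50 UMIs, both libraries together, was set for a gene, and log2 ratios are of CPM plus 1, which understates differences of low genes. PCR copies are collapsed by UMIs, free RNA is not removed.

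The members, gene lists and tests were chosen with earlier results of these data known. Genes named are those of the rule, the 20 highest over the other mesenchymal barcodes in both libraries with at least 100 CPM in the members of each, the 15 highest and 15 lowest between ages with at least 100 CPM in 1 library, the same direction under every scaling and at least 10% of the Ttr-high level, and up to 6 counted and 4 most abundant genes per list. Further genes given beside these were chosen after their values were seen. Some genes that the rule names are not reported here. The rankings leave out predicted genes, Xist and the mitochondrial, ribosomal protein and haemoglobin genes. Scrublet's automatic threshold marked 14 and 4 barcodes, 0.153% and 0.0384%, and did not work, so no doublets were removed; removing the 670 and 870 highest scores (0.8% per 1000 barcodes) took out 2 and 3 members. Alternatives changed the scaling, depth, limits and the rule; 3 were added after seeing the data. The ratio computation was tested on simulated data. Python 3.11.15, numpy 2.4.6, scipy 1.17.1, pandas 2.3.3 and scanpy 1.11.5 were used.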

Additional observations from a re-analysis of the deposited data

Results flagged for a closer look

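3 genes passed the limit of 1.5-fold in opposite directions in Crabp1 and Coch fibroblasts and in the other mesenchymal barcodes; the difference was not tested, since there was 1 library per age. Col15a1, a collagen of the basement membrane zone, was 2.42 times (1.34 to 4.55) higher at 24 months in members, from 18 to 35 UMIs, and 0.658 times its level at 3 months in the others, from 425 to 352 UMIs. Ociad2, a mitochondrial membrane protein, was 1.97 times (1.23 to 3.20) higher in members, from 31 to 49 UMIs, against 0.475 times; its log2 ratio in members ranged from −0.66 to 1.38 over the alternatives and was below 0 in 3 of them. Mcrip2 was 1.93 times (1.10 to 3.46) higher, from 22 to 34 UMIs, against 0.521 times.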

How the results depend on the processing

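The difference in the members' share of mesenchymal barcodes kept its sign and moved by less than its counting interval under all 7 alternatives, from −11.09 points (Ttr under 2%) to −6.47 points (rule applied after thinning). The count of 191 genes higher at 24 months was 108 with barcodes thinned to 1500 UMIs, 376 with a limit of 10 UMIs, 45 with 200 UMIs and 47 with a ratio of at least 2. The count of 310 lower genes was 154 after thinning, 67 with 200 UMIs and 69 with a ratio of at least 2. Thinning leaves fewer UMIs and 3395 genes, and the other settings change the limit itself. The remaining settings kept both counts within 1.5 times. Of the log2 ratios of named genes over all alternatives, 2786 stayed within their counting interval, 176 moved beyond it and 6 changed sign in a counted gene; the cause was not tested. Among members with a Crabp1 UMI, Slc13a4 turned from −0.74 to 0.40 and Cxcl2 from 0.66 to −0.78. With the rule applied after thinning, Tagln turned from −0.99 to 0.71 and Ociad2 from 0.94 to −0.66; Ociad2 was also at −0.080 with Ttr under 2% and at −0.032 with at least 10 mesenchymal UMIs. Of the list medians, 376 stayed and 40 moved. With 1 library per age no replicate could be left out. No paired analysis was possible because each age has 1 library and the labels carry no replicate numbers. A gene with 50 UMIs in members has a wide interval, so ratios of low genes limit what can be seen in single genes, such as most of the interferon list.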
